A study of Schizosaccharomyces pombe with 24 samples.

Results

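The comparison is between 2 alleles of pfs2 in fission yeast (Schizosaccharomyces pombe), pfs2-V180F and pfs2-E104A, each named for a single amino acid change in the Pfs2 protein. Its members are the 3 libraries labelled pfs2-V180F and the 3 labelled pfs2-E104A, 6 of the 24 libraries of the series, and every gene was compared, of which 6287 of 6988 had enough reads to test. Both allele strains are h- haploids that carry, beside the pfs2 mutation, a wild-type copy of asp1 marked with kanMX (asp1-WT::kanMX). The WT strain is an h- haploid with neither the mutation nor the marker. The other mutants, used for the shared fit and for levels, are msi2-G252E, pta1-T524M and ysh1-L74F, which are h- and carry the same asp1 marker, pla1-Y86L::kanMX, which is h- without it, and cft1-L249Q, which is h+ with no marker in its label. All cultures were in log phase at 30 °C in YES, a rich yeast extract medium, and polyA+ RNA was sequenced. Because the marker is present in both alleles, a difference between them is not a difference in the marker, while each difference from WT holds the allele and the marker together.

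Pfs2 is a WD-repeat protein and an essential subunit of the cleavage and polyadenylation factor, the complex that cleaves pre-mRNA at the poly(A) site and polyadenylates the new end, and this cleavage is coupled to transcription termination. Its human counterpart, WDR33, takes part in recognition of the polyadenylation signal. In fission yeast the phosphate-acquisition (PHO) genes are repressed in cis by transcription of a long non-coding RNA (lncRNA) upstream of each gene, and early termination of that lncRNA lifts the repression. The title of the series concerns mutations that suppress such precocious termination.

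Allele libraries held 19.37 to 29.3 M (mega) counts and WT libraries 25.3 to 28.11 M. Across genes, replicates of WT and of the alleles differed from each other with an SD of log2 differences of 0.133 to 0.182, and the allele means differed with an SD of 0.291. The pfs2 mRNA was at 45.7, 44.5 and 43.8 CPM (counts scaled to library size and composition) in the pfs2-E104A libraries and at 41.2, 46.4 and 44.5 in pfs2-V180F, with a log2 difference of -0.02 ± 0.05 (SE; edgeR adjusted p = 0.774). A point mutation cannot be read from gene counts, so the alleles themselves were not checked. SPNCRNA.1144, annotated antisense to asp1, was at 32.8 ± 2.76 CPM (SD, n = 3) in pfs2-E104A, 32.4 ± 1.98 in pfs2-V180F and 0.790 ± 0.204 in WT, with a log2 difference of -0.01 ± 0.09 between the marked alleles (adjusted p = 0.937). The asp1 mRNA, for the inositol pyrophosphate kinase that the marker adjoins, was at 149 ± 14.3 and 149 ± 9.67 CPM in the alleles (adjusted p = 0.947 between them).

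Between the alleles, hexose transporter, iron-starvation, sterol and heme synthesis, and PHO genes held members at least 2-fold apart, and the aldehyde dehydrogenase gene atd1 had the largest rise of a protein-coding gene in pfs2-V180F. Stress and chaperone genes were mostly higher in pfs2-V180F, with medians of 0.40 and 0.50 on the log2 scale. At least 2-fold higher were 3 genes of the stress list and 1 of the chaperone list. At an adjusted p under 0.05 (edgeR quasi-likelihood test, Benjamini-Hochberg adjustment over 6287 genes), 2404 genes differed, 38.2% of those tested. Of these, 1234 were higher in pfs2-V180F, 19.6% of genes tested, and 1170 were lower, 18.6%. Most of these differences were small, with a median absolute log2 fold change of 0.26 among the genes called. At least 2-fold higher in pfs2-V180F were 109 genes (1.73%), and 42 were at least 2-fold lower (0.668%). These 151 genes are 2.4% of those tested. Libraries of the alleles did not overlap for 146 of them, which follows largely from choosing them by differences between the same libraries. Protein-coding genes went both ways, with 901 higher and 1097 lower of 5004. Against WT, 48.1% of genes tested passed in pfs2-V180F and 34.2% in pfs2-E104A. Unless stated otherwise, fold changes below are log2 values of pfs2-V180F minus pfs2-E104A with their SE, and adjusted p-values are from the same edgeR test. The largest rises and falls were named only where libraries of the alleles do not overlap, so non-overlap of those genes adds no support. List counts below are to be read beside the shares of all genes tested, 19.6% higher and 18.6% lower.

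**Figure D1:**
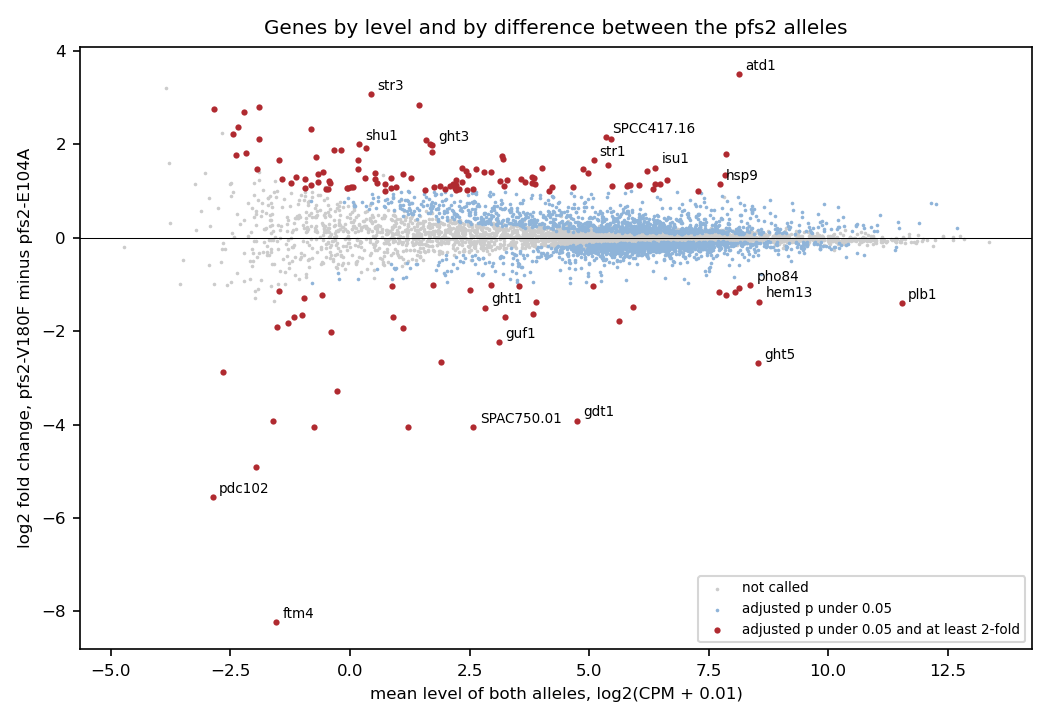
Each point is a gene, placed by its mean level in both alleles (log2 of CPM + 0.01, x axis) and by its log2 fold change between them (y axis, above 0 where pfs2-V180F is higher). Red points are the 109 genes at least 2-fold higher and the 42 at least 2-fold lower, among which atd1, plb1 and ght5 stand at high levels and ftm4, pdc102 and the genes near them at low levels.

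For the 151 genes at least 2-fold apart, the WT mean was placed relative to both alleles. Of the 109 genes higher in pfs2-V180F, 37 had WT between the alleles and nearer to pfs2-E104A, 32 had WT between and nearer to pfs2-V180F, 35 had WT outside on the side of pfs2-E104A and 5 outside on the side of pfs2-V180F. Among the 42 lower genes these counts were 12, 14, 12 and 4. So the fitted differences of the alleles from WT had opposite signs for many of these genes in both sets. Position was read from the signs and sizes of these fitted differences, with no test against WT. The heme synthesis gene hem13, with WT between, was at -0.14 in pfs2-V180F against WT (edgeR adjusted p = 0.398). Genes chosen for a large gap between the alleles leave room for WT within it, so no conclusion is drawn from these counts. The counts of 5 and 4 are the least firm. Without pfs2-V180F replicate 2, pfs2-V180F replicate 3 or WT replicate 1 the count of 5 became 3, 2 and 2, and without WT replicate 2 the count of 4 became 8.

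Among the PHO genes, pho1 and pho84 were lower in pfs2-V180F and tgp1 was higher. The acid phosphatase gene pho1 was at 345, 285 and 319 CPM in pfs2-E104A and 143, 141 and 138 in pfs2-V180F, against 1178, 1291 and 1156 in WT. Every pfs2-V180F library was below every pfs2-E104A library, and both alleles were below WT. The difference between the alleles was -1.17 ± 0.08 (adjusted p = 2.27e-10). The phosphate transporter gene pho84 had the same order, at 519, 444 and 447 CPM in pfs2-E104A and 227, 218 and 256 in pfs2-V180F, a difference of -1.01 ± 0.08 (adjusted p = 1.84e-09). The glycerophosphodiester transporter gene tgp1 had another order, at 15.6, 14.1 and 12.5 CPM in pfs2-E104A, 19.6, 19.1 and 19.2 in pfs2-V180F and 25.1, 22.2 and 24.2 in WT. Its libraries did not overlap between the alleles, and it was higher in pfs2-V180F by 0.45 ± 0.07 (adjusted p = 4.58e-05).

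The lncRNAs upstream of pho1 and pho84 were higher in pfs2-V180F, the allele with less of both mRNAs. The lncRNA nc-pho1 was at 4.51, 4.76 and 4.14 CPM in pfs2-E104A, close to the 3.92, 4.93 and 4.61 of WT, and at 9.89, 7.76 and 8.28 in pfs2-V180F. No pfs2-V180F library reached down to either of the other groups, and the difference between the alleles was 0.94 ± 0.10 (adjusted p = 2.68e-07). The lncRNA upstream of pho84, prt2, was at 36.5, 38.3 and 36.3 CPM in pfs2-E104A and 52.9, 54.9 and 57.4 in pfs2-V180F, a rise of 0.57 ± 0.05. The lncRNA upstream of tgp1, nc-tgp1, was at 18.6 ± 2.12 and 20.3 ± 0.329 CPM (SD, n = 3) in the alleles and did not pass (log2 0.13 ± 0.08, adjusted p = 0.211). Its WT mean was 26.3 CPM. Like tgp1 itself, nc-tgp1 was below WT in both alleles. It was at -0.50 in pfs2-E104A (adjusted p = 3.86e-05) and -0.37 in pfs2-V180F (adjusted p = 0.000319) against WT.

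Of 14 other phosphate and inositol pyrophosphate genes, 4 rose and 4 fell (28.6% each) in pfs2-V180F relative to pfs2-E104A. Their median log2 fold change was 0.02 (all genes tested, -0.01). The phosphate transporter gene pho842 rose by 0.75 ± 0.08, from 59.0, 47.5 and 51.6 to 96.6, 80.8 and 90.7 CPM with no overlap, and was lower than the 126 ± 9.60 CPM of WT (SD, n = 3) in both alleles. Another riser was gde1, annotated as a glycerophosphodiester phosphodiesterase gene, by 0.33 ± 0.06. The hydrolase gene aps1, whose product acts on diadenosine polyphosphates and inositol pyrophosphates, fell by 0.40. So did vtc4, for a subunit of the vacuolar polyphosphate polymerase complex, by 0.26, a call that was lost without pfs2-E104A replicate 3.

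**Figure D2:**
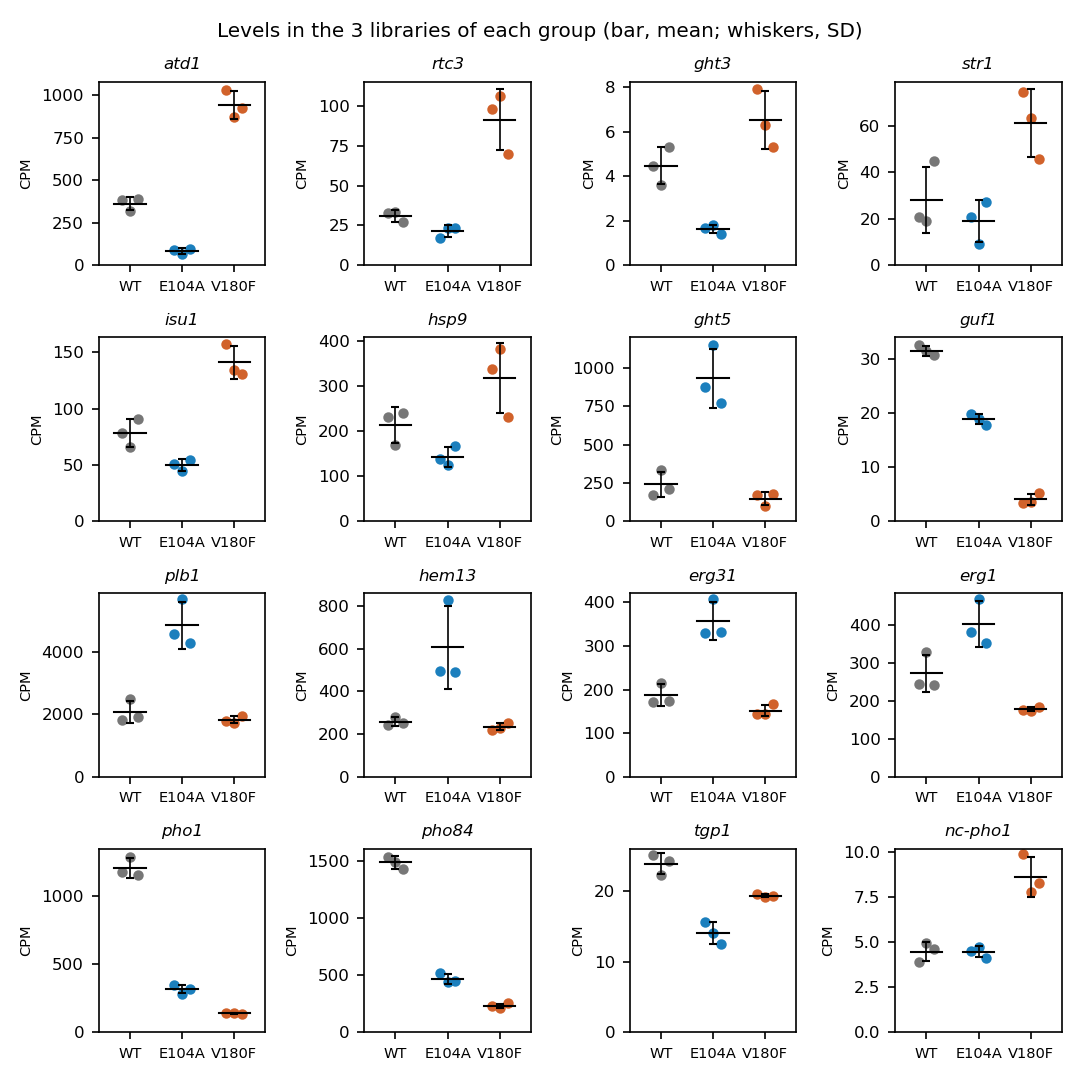
Level in CPM (y axes, from 0) of 16 genes in the 3 libraries of WT, pfs2-E104A and pfs2-V180F (x axes), with points for libraries, a bar for the mean and whiskers for the SD. In atd1, ght3, ght5, hem13 and erg31 the pfs2-E104A libraries stand apart from both other groups, whereas in rtc3 and nc-pho1 the pfs2-V180F libraries do.

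Genes for the cleavage and polyadenylation factor itself differed little between the alleles. Of its 15 core subunits, 4 were higher (26.7%) and 3 lower (20%) in pfs2-V180F, with a median log2 fold change of -0.05 and none reaching 2-fold. The count of 4 became 2 without pfs2-V180F replicate 3, pfs2-E104A replicate 1 or pfs2-E104A replicate 3, and the count of 3 became 1 without replicate 1 of either allele. The subunit gene with the largest difference was mpe1, for a RING-type protein of the factor, at 174, 179 and 185.7 CPM in pfs2-E104A and 237, 216 and 223 in pfs2-V180F. All 3 groups were separate for mpe1, with WT lowest at 102, 97.3 and 103, and it rose by 0.33 ± 0.04 between the alleles (adjusted p = 2.92e-06). Against WT, mpe1 rose by 0.83 in pfs2-E104A and by 1.16 in pfs2-V180F. The subunit gene cft2 fell by 0.27 and rna14, for a scaffold subunit, rose by 0.20. For yth1, a zinc-finger subunit, the difference of 0.15 was lost in 5 of the 6 fits without 1 allele library.

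Of 14 genes of the phosphatase module and of termination factors, 2 were higher and 2 lower, with a median of -0.06. The termination factor gene seb1 rose by 0.43 ± 0.05, from 124, 112 and 116 to 164, 155 and 156 CPM, and was in pfs2-V180F near the WT level of 166 ± 12.2 CPM (SD, n = 3). The gene for the transcription elongation kinase Cdk9 fell by 0.33, as did ppn1, for a phosphatase-module subunit, by 0.23. The termination exonuclease gene dhp1 rose by 0.15. Among 17 genes of nuclear RNA surveillance (exosome subunits and the Mmi1-Red1 elimination pathway), 1 was higher and 4 lower, with a median of -0.02 and no difference larger than the -0.27 of iss10.

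Most hexose transporter genes were lower in pfs2-V180F. Of the 8 genes of the family, 5 fell and 1 rose between the alleles, with a median of -0.33, and these counts held in every fit without 1 library. The gene for the high-affinity glucose transporter Ght5 was at 878, 1151 and 775 CPM in pfs2-E104A, 167, 95.3 and 174 in pfs2-V180F and 172, 333 and 212 in WT. The pfs2-E104A libraries were all above the other 6, and the difference between the alleles was -2.69 ± 0.23 (adjusted p = 4.06e-09). Against WT, ght1, ght4, ght5 and ght8 rose in pfs2-E104A, ght5 by 1.97 ± 0.22, ght3 fell, and the others did not pass. In pfs2-V180F it was at -0.72 against WT, a call lost without pfs2-V180F replicate 2 or WT replicate 2.

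The other high-affinity glucose transporter gene of the list, ght1, was at 11.2, 13.6 and 10.9 CPM in pfs2-E104A and 3.41, 4.39 and 4.73 in pfs2-V180F and fell by 1.50 ± 0.15. With 4.71, 7.04 and 4.65 CPM, WT again lay with pfs2-V180F. The hexose transporter gene ght4 fell by 1.03 ± 0.11, with 48.6 ± 9.96 CPM in pfs2-E104A, 23.7 ± 0.845 in pfs2-V180F and 22.9 ± 3.40 in WT (SD, n = 3). The transporter gene ght8 fell by 0.42 and ght2 by 0.23, while ght6 and ght7 were under 1 CPM in the allele libraries and did not pass. The gluconate transporter gene ght3 went the other way, at 1.66, 1.80 and 1.42 CPM in pfs2-E104A, 7.92, 6.30 and 5.32 in pfs2-V180F and 4.46, 3.62 and 5.29 in WT. It rose by 1.99 ± 0.20 (adjusted p = 4.51e-08).

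The largest rise of a protein-coding gene was in atd1, which encodes an aldehyde dehydrogenase. It was at 91.6, 64.5 and 94.4 CPM in pfs2-E104A, 1033, 874 and 926 in pfs2-V180F and 383, 319 and 387 in WT. The 3 groups were fully separate, with WT between the alleles, and the rise between the alleles was 3.50 ± 0.14 (adjusted p = 5.15e-14). Against WT, atd1 fell by 2.12 on the log2 scale in pfs2-E104A and rose by 1.38 in pfs2-V180F. Of 33 carbon metabolism genes, 9 rose and 9 fell (27.3% each), with a median of -0.03. The risers also included the aldehyde dehydrogenase gene atd2 (0.54), the trehalase gene ntp1 (0.66) and the trehalose-phosphate synthase gene tps1 (0.66). Among those that fell were scr1, for a glucose-responsive repressor, by 0.82, and the glycerol dehydrogenase gene gld1, by 0.65.

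Genes of sterol and heme synthesis and of the low-oxygen response were largely higher in pfs2-E104A. In fission yeast the membrane-bound factor Sre1 induces such genes when oxygen or sterols are low. Of 17 genes, 12 were lower and 1 higher in pfs2-V180F than in pfs2-E104A, with a median of -0.27, and 9 to 12 were lower in the fits under other settings. The median was 0.17 for pfs2-E104A against WT and -0.03 for pfs2-V180F against WT. The heme synthesis gene hem13 was at 497, 831 and 492 CPM in pfs2-E104A, 220.2, 229.8 and 254 in pfs2-V180F and 242, 282 and 252.4 in WT. All pfs2-E104A libraries were above the other 6, with replicate 2 far above its group, and the difference between the alleles was -1.37 ± 0.13 (adjusted p = 3.68e-08). Without that replicate it was -1.07.

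The sterol desaturase gene erg31 was at 331, 408 and 333 CPM in pfs2-E104A and 145, 144 and 166 in pfs2-V180F, with WT at 171, 216 and 173. Again pfs2-E104A stood above both other groups, and erg31 differed by -1.23 ± 0.10 between the alleles (adjusted p = 1.13e-09). The squalene monooxygenase gene erg1 was at 380.4, 468 and 352 CPM in pfs2-E104A, 176, 172 and 184 in pfs2-V180F and 244, 329 and 242 in WT, and fell by 1.17 ± 0.10. Here the pfs2-V180F libraries were also below WT. The sre1 mRNA fell by 0.71, again with pfs2-E104A replicate 2 highest (189, 286 and 184 CPM against 138, 134 and 131 in pfs2-V180F), and was at -0.47 without it. Other falls were seen in hem14 (-0.72), the fatty acid desaturase gene ole1 (-0.49), erg11 (-0.37), ofd1 (-0.28) and erg25 (-0.27). The paralogue of erg31, erg32, rose by 0.49 ± 0.10, from 73.8, 65.7 and 77.0 to 111, 99.8 and 94.5 CPM.

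A pair of lipid genes outside that list showed the same order of groups. The phospholipase gene plb1, one of the 10 largest falls among protein-coding genes with a symbol, was at 4587, 5688 and 4274 CPM in pfs2-E104A, 1788, 1734 and 1956 in pfs2-V180F and 1823, 2475 and 1914 in WT. It fell by 1.41 ± 0.10 between the alleles (adjusted p = 5.05e-10), and the pfs2-E104A libraries were above all others. The sphingolipid hydroxylase gene sur2, chosen after its values were seen, fell by 1.07 ± 0.12, or by 0.80 without pfs2-E104A replicate 2.

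**Figure D3:**
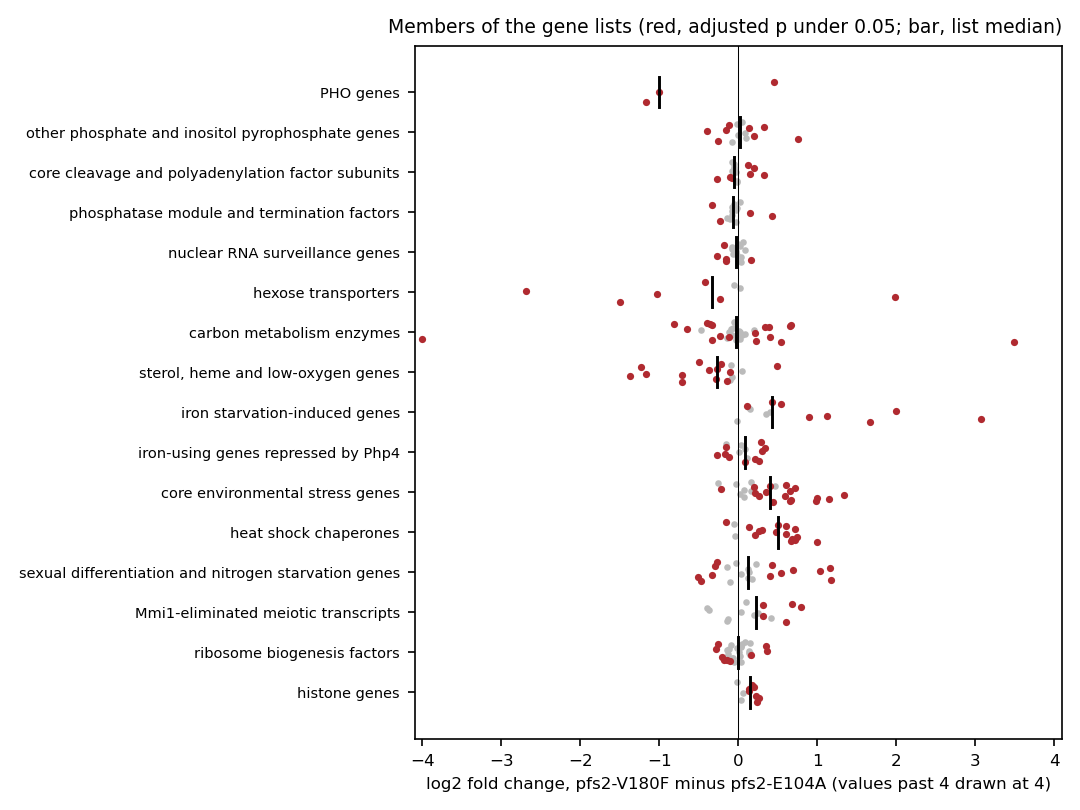
Each row is a gene list, and each point a tested member at its log2 fold change between the alleles (x axis, right of 0 where pfs2-V180F is higher). Red points passed at an adjusted p under 0.05 and the black bar is the list's median. Iron starvation, core stress and heat shock genes lie mostly to the right, and sterol, heme and low-oxygen genes mostly to the left.

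Iron acquisition genes were mostly higher in pfs2-V180F. Of 13 genes that fission yeast induces when starved of iron, 8 rose in pfs2-V180F relative to pfs2-E104A and the other 5 did not pass, with a median of 0.43, and 4 rose at least 2-fold. Fits under other settings gave 8 to 10. The siderophore transporter gene str1 was at 20.8, 9.16 and 27.2 CPM in pfs2-E104A, 74.6, 63.2 and 45.7 in pfs2-V180F and 20.7, 18.9 and 44.6 in WT. The alleles did not overlap, though WT replicate 3 came close to the lowest pfs2-V180F library, and the rise was 1.67 ± 0.34 (adjusted p = 0.000438). The iron permease gene fip1 was at 40.8, 23.1 and 49.9 CPM in pfs2-E104A and 94.99, 74.6 and 79.0 in pfs2-V180F, a rise of 1.12 ± 0.20. In pfs2-E104A, replicate 2 was the lowest for both genes, and without it the rises were 1.37 and 0.88.

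Another siderophore transporter gene, str3, and the heme uptake gene shu1 rose by 3.07 ± 0.67 and 2.003 ± 0.250, from lower levels. Among tested genes in annotated order, shu1 lies between str3 and the hexose transporter gene ght3, which also rose. For str3 the libraries were at 0.356, 0.423 and 0.629 CPM in pfs2-E104A, 3.12, 5.08 and 3.23 in pfs2-V180F and 0.292, 0.597 and 1.76 in WT. No pfs2-V180F library overlapped the other groups. The multicopper oxidase gene fio1 rose by 0.89, the vacuolar transporter gene abc3 by 0.54 and sib3, of siderophore synthesis, by 0.11. So did php4, for the repressor of iron-using genes, by 0.43 ± 0.06, from 35.5, 30.7 and 33.8 to 44.7, 47.6 and 42.7 CPM. Of 15 genes listed here as iron-using and repressed by Php4, 6 rose (40%) and 4 fell (26.7%), with a median of 0.08. None reached 2-fold, and the largest rise in that list was that of lys4, for homocitrate synthase, by 0.33. The gene for the iron-sulfur scaffold protein Isu1 was at 50.3, 44.2 and 54.6 CPM in pfs2-E104A, 158, 135 and 131 in pfs2-V180F and 78.5, 65.8 and 90.6 in WT. These 3 groups did not overlap, and isu1 rose by 1.50 ± 0.10 (adjusted p = 9.96e-11).

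Stress genes and chaperones were mostly higher in pfs2-V180F. In the list of 25 genes of the core environmental stress response, 16 rose and 1 fell, with a median of 0.40. The sulfiredoxin gene srx1, whose product reactivates oxidized peroxiredoxin, was at 2.97, 3.49 and 3.98 CPM in pfs2-E104A and 9.55, 10.03 and 6.62 in pfs2-V180F and rose by 1.34 ± 0.19. The small heat shock protein gene hsp9 was at 138, 124 and 167 CPM in pfs2-E104A, 338, 382 and 232 in pfs2-V180F and 231, 168 and 240 in WT. The alleles did not overlap, pfs2-V180F replicate 3 lay within the range of WT, and the rise was 1.15 ± 0.16 (adjusted p = 5.28e-06). The catalase gene ctt1 rose by 0.98 ± 0.10 and atf1, for a transcription factor of the stress response, by 0.72. The gene that fell was pyp2, for a phosphatase of the stress kinase Sty1, at -0.22, and that call was lost under several other settings.

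Among 17 heat shock chaperone genes tested, 14 rose and 1 fell, with a median of 0.50, and these counts were equal in every other fit. The small chaperone gene hsp16, also in the stress list, was at 93.7, 108 and 126 CPM in pfs2-E104A, 237, 216 and 204 in pfs2-V180F and 77.2, 107 and 99.6 in WT. Here WT and pfs2-E104A overlapped, pfs2-V180F was above both, and the rise was 1.00 ± 0.10 (adjusted p = 6.42e-08). Cytosolic chaperones had smaller rises with tight replicates. The Hsp70 gene ssa2 was at 3634, 3548 and 3423 CPM in pfs2-E104A and 5931, 6074 and 5686 in pfs2-V180F, a rise of 0.74 ± 0.06. The Hsp90 gene rose by 0.71 ± 0.06 and the Hsp70-Hsp90 co-chaperone gene sti1 by 0.72 ± 0.06. In WT, ssa2, hsp90 and sti1 stood between the alleles, at 4772 ± 325, 4460.4 ± 259 and 857 ± 54.2 CPM (SD, n = 3). The 1 gene that fell was hsf1, for the heat shock transcription factor, at -0.16.

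Further large rises of named protein-coding genes were in rtc3, rec15, mug147 and ddr48. The gene rtc3, for a protein of the SBDS family, was at 17.3, 23.4 and 23.6 CPM in pfs2-E104A, 98.1, 106 and 69.6 in pfs2-V180F and 32.9, 33.3 and 26.8 in WT, and rose by 2.11 ± 0.18 (adjusted p = 3.55e-09). Its pfs2-V180F libraries were above all libraries of both other groups. The meiotic recombination gene rec15 rose by 1.87 ± 0.38 but was under 2 CPM in every library of the 3 groups, mug147 by 1.75 ± 0.16 and ddr48 by 1.41 ± 0.25. Further large falls were in nep2 and rsv1. The NEDD8 protease gene nep2 was at 21.2, 24.9 and 25.3 CPM in pfs2-E104A and 9.94, 7.28 and 10.5 in pfs2-V180F, without overlap, and fell by 1.37 ± 0.14. The transcription repressor gene rsv1 was under 1 CPM in all 6 allele libraries and fell by 1.83 ± 0.43.

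A few genes without a symbol, chosen after their values were seen, add to these. SPCC417.16, annotated as a subunit of the NADH-ubiquinone reductase complex, was at 23.9, 11.96 and 21.7 CPM in pfs2-E104A, 97.0, 81.6 and 80.8 in pfs2-V180F and 93.3, 73.6 and 95.4 in WT. WT and pfs2-V180F overlapped, and the difference between the alleles was 2.15 ± 0.15. SPAC1039.02, annotated as a phosphoprotein phosphatase, was at 118, 134 and 127 CPM in pfs2-E104A and 419, 394 and 489 in pfs2-V180F (1.78 ± 0.10). SPAC2H10.01, annotated as a transcription factor, fell by 1.79 ± 0.11, from 89.7, 99.3 and 87.7 to 23.1, 29.1 and 27.5 CPM. Among the largest rises by rule, SPCC191.04c and the lncRNA SPNCRNA.808 rest on few reads. SPCC191.04c had 2, 0 and 1 reads in pfs2-E104A and 6, 6 and 14 in pfs2-V180F, a ratio of 7.31 (95% interval 2.24 to 37.75, for counting error alone). SPNCRNA.808 had 3, 1 and 1 and 8, 12 and 20 (adjusted p = 0.00643).

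Some of these genes set pfs2-E104A apart from the whole series in level. The mean of atd1 over the other 5 mutants ran from 419 to 1828 CPM, against 83.5 in pfs2-E104A. For ght5 it ran from 62.6 to 153, against 935, and for hem13 from 217 to 309, against 607. For plb1 the other mutants ran from 1273 to 1977 CPM, against 4850. In pfs2-V180F each of these 4 means lay within the range of the other mutants. For each of these 4 genes, and for erg31 and SPCC417.16, pfs2-E104A was the lowest or the highest of the 8 groups. The values are given as levels, and of the other mutants pla1-Y86L and cft1-L249Q lack the asp1 marker. These genes do not stand for the whole profile. Across all genes tested pfs2-E104A was nearer to WT, with an SD of log2 differences of group means of 0.244, against 0.329 for pfs2-V180F. Genes that set pfs2-V180F apart from the series were not counted.

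**Figure D4:**
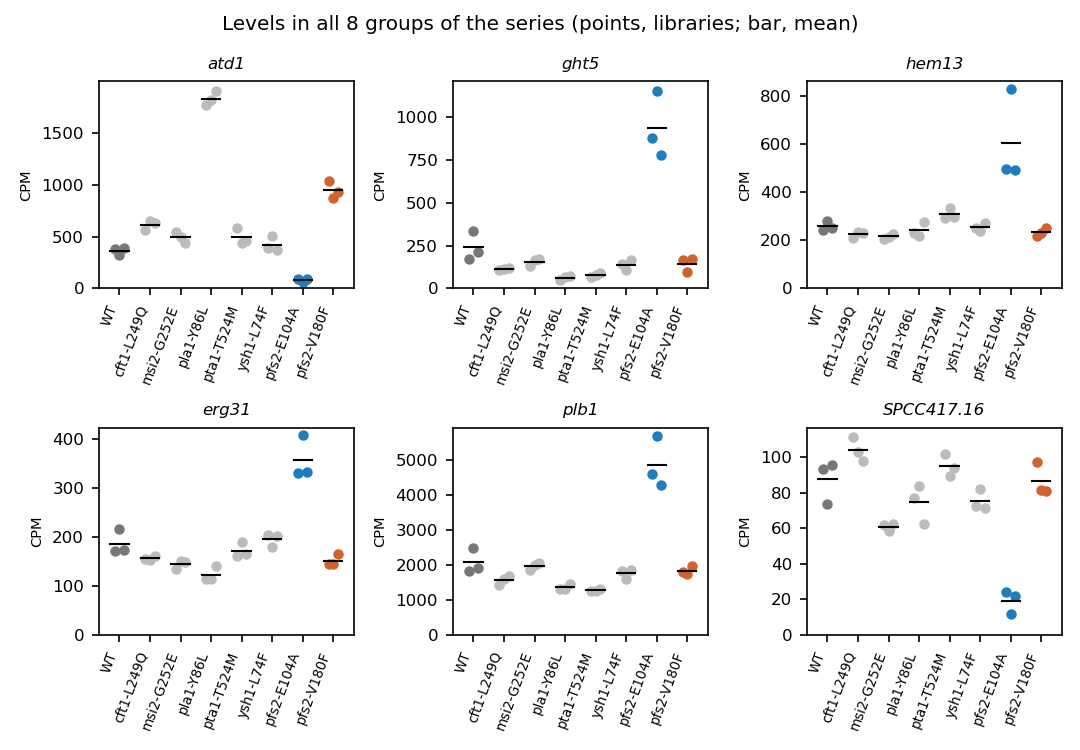
Level in CPM (y axes, from 0) of 6 genes in all 8 groups of the series (x axes), with points for the 3 libraries and a bar for their mean. The pfs2-E104A libraries (blue) are lowest for atd1 and SPCC417.16 and highest for ght5, hem13, erg31 and plb1, while the pfs2-V180F libraries (orange) lie among the other groups.

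Nitrogen-related and meiotic genes were mixed. Of 21 genes of sexual differentiation and nitrogen starvation, 7 rose (33.3%) and 5 fell (23.8%) in pfs2-V180F relative to pfs2-E104A, with a median of 0.13. The ammonium transporter gene amt3 was at 8.39, 8.78 and 10.7 CPM in pfs2-E104A, 21.0, 20.6 and 20.7 in pfs2-V180F and 5.08, 4.69 and 4.57 in WT. These 3 groups were separate, and the rise between the alleles was 1.16 ± 0.09 (adjusted p = 1.22e-09). The oxygenase gene isp7 rose by 1.04 ± 0.16 and another ammonium transporter gene, amt1, by 0.70 ± 0.13. The meiotic inducer gene mei3, under 1 CPM, was at 1.18, a call lost without any of pfs2-V180F replicate 1, pfs2-E104A replicate 1 or pfs2-E104A replicate 2. Those that fell included ste4 (-0.51), mei2 (-0.48) and gpa1 (-0.34), of the mating and meiotic pathway. Among 14 meiotic mRNAs marked for degradation by Mmi1, an RNA-binding protein, 5 rose (35.7%) and 9 did not pass, with a median of 0.22. The largest of these rises were in mug45 (0.79 ± 0.13), spo6 (0.68 ± 0.13) and mei4 (0.61 ± 0.15).

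Mating-type markers were checked because all 3 groups are labelled h-. The M-cell genes mfm2 and mam1 were at 44.5 ± 7.50 and 69.7 ± 4.20 CPM in WT, at 40.6 ± 3.95 and 68.2 ± 4.58 in pfs2-E104A and at 24.3 ± 1.62 and 47.2 ± 1.87 in pfs2-V180F (SD, n = 3). The P-cell genes map2 and map3 were at 6.71 and 13.0 CPM in WT, not at 0, and at 7.18 and 13.0 in pfs2-E104A and 6.18 and 10.6 in pfs2-V180F. In WT the M-cell genes mfm1, mfm3 and mam2 were at 0.748, 0.812 and 7.64 CPM, all below map3. Of 5 M-cell genes, mfm2 (-0.75), mam1 (-0.53) and the P-factor receptor gene mam2 (-0.51) fell between the alleles. The gene mfm3 rose (1.05, from a mean of 1.24 to 2.64 CPM) and mfm1 did not pass. Of the 2 P-cell genes, map3 was lower (-0.29), a call lost in 3 of the 6 fits without 1 allele library.

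Non-coding RNAs were more often higher than lower in pfs2-V180F. Of 1190 lncRNA genes tested, 317 rose and 68 fell, or 26.6% and 5.71%, against 19.6% and 18.6% of all genes tested. Their median log2 fold change was 0.17 (all genes tested, -0.01), and under other settings 236 to 324 rose and 47 to 70 fell. At least 2-fold, 66 rose and 10 fell, against 109 and 42 of all 6287 genes tested. Among 192 lncRNAs that the annotation marks as a possible alternative UTR, 70 rose and 12 fell. Of all 1164 genes that this annotation types as lncRNA, 310 rose and 68 fell. One of them, SPNCRNA.1618, was at 19.01, 19.8 and 19.8 CPM in pfs2-E104A, 45.3, 54.6 and 51.9 in pfs2-V180F and 12.2, 12.1 and 11.3 in WT, and rose by 1.38 ± 0.06 (chosen after its values were seen). Together lncRNA genes took 1.10, 1.12 and 1.12% of counts in pfs2-E104A, 1.28, 1.26 and 1.32% in pfs2-V180F and 1.05, 1.07 and 1.03% in WT. The groups did not overlap, and the difference of 0.175 percentage points gave p = 0.1 in a two-sided exact permutation test, the smallest that 3 against 3 allows. Of 45 snoRNA and snRNA genes, seen here only as far as polyA+ selection lets them through, 10 rose and 35 did not pass, with a median of 0.28.

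The largest rise of a non-coding gene was in SPNCRNA.1037, which is annotated antisense to guf1, a gene for a GTPase. SPNCRNA.1037 was at 1.03, 1.16 and 0.839 CPM in pfs2-E104A, 6.96, 6.86 and 8.16 in pfs2-V180F and 0.542, 0.477 and 0.862 in WT, and guf1 at 19.9, 18.9 and 17.9, 3.31, 3.45 and 5.24 and 32.6, 31.5 and 30.7. Both genes differed between the alleles, in opposite directions, with 2.85 ± 0.18 for SPNCRNA.1037 (adjusted p = 4.28e-11) and -2.24 ± 0.11 for guf1 (adjusted p = 2.68e-12). Over 959 tested pairs of an antisense lncRNA and a protein-coding gene, both members were called in 157. They went in opposite directions in 91 pairs, 76 of them with the lncRNA higher and the gene lower, and in the same direction in 66. Called lncRNA genes were mostly higher anyway (317 against 68), and called protein-coding genes more often lower (1097 against 901). Of all genes tested 38.2% were called. No count expected for unlinked pairs was worked out, so these counts show no link within pairs. Among 47 pairs whose lncRNA was at least 2-fold higher, the gene was lower in 12 (25.5%) and higher in 13 (27.7%), against 18.6% and 19.6% of all genes tested. Of the 5004 protein-coding genes tested, 1097 were lower and 901 higher. Some pairs share their lncRNA, as those of grp2 and arp5 share SPNCRNA.1523. After guf1, the pairs with the largest fall of the gene were SPAC11D3.14c (-0.64) with SPNCRNA.609 (1.11) and grp2 (-0.49) with SPNCRNA.1523 (1.19). Those with the largest rise were hhy1 (0.73) with SPNCRNA.605 (1.28) and the trehalase gene ntp1 (0.66) with SPNCRNA.1327 (1.10). These pairs were chosen after their values were seen. How the counting treated strand was not stated, so reads of a gene and of its antisense partner may not be fully separated.

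The largest falls lay in neighbouring genes at 1 end of chromosome I. In the order of the annotation, 9 adjacent tested genes, SPAC186.04c, gdt1, SPAC186.06, prl61, SPAC186.08c, pdc102, SPAC750.01, ftm4 and SPAC750.06c, were all at least 2-fold lower in pfs2-V180F. The gene with the most reads, gdt1, for a GDT1-like membrane protein, had 2288, 2107 and 2220 reads in the pfs2-E104A libraries, 82, 204 and 243 in pfs2-V180F and 697, 1704 and 1887 in WT, a difference of -3.92 ± 0.63 (adjusted p = 3.31e-05). Every pfs2-V180F library was far below every library of the other groups shown. For SPAC750.01, annotated as an aldo/keto reductase, the reads were 651, 405 and 470 in pfs2-E104A, 43, 35 and 30 in pfs2-V180F and 157, 1015 and 830 in WT, so WT itself was uneven. Over its 3 libraries pfs2-V180F had 1 read of ftm4 against 342 in pfs2-E104A, a ratio of 0.00247 (95% interval 6.23e-05 to 0.0138, for counting error alone). The pyruvate decarboxylase gene pdc102 had 1 read against 54 (ratio 0.0156, 0.000389 to 0.0908) and SPAC750.06c 3 against 86 (0.0294, 0.00595 to 0.0889). The prl61 call was lost in 4 of the 6 fits without 1 allele library.

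On the inner side of this stretch the flocculin-like gene pfl9 was higher in pfs2-V180F (0.95 ± 0.23), with 102, 84 and 81 reads in pfs2-E104A and 144, 246 and 227 in pfs2-V180F, without overlap. The next gene, SPAC186.02c, had 1, 0 and 3 reads in pfs2-E104A and 5, 12 and 7 in pfs2-V180F and did not pass. Outside both alleles, low levels differed along the stretch. At gdt1 cft1-L249Q replicate 1 was low, with 114 reads against 2043 and 2078 in the other cft1-L249Q replicates, and every other library outside pfs2-V180F had at least 696. Toward the end of the chromosome more groups were low. The ysh1-L74F libraries had 40, 32 and 36 reads of SPAC750.01, about as few as pfs2-V180F, and 0, 1 and 2 of ftm4. For ftm4 the cft1-L249Q libraries had 0, 3 and 2 reads, msi2-G252E had 6, 4 and 8 and WT replicate 1 had 1, while pfs2-E104A had the highest mean CPM of the 8 groups. Genes near chromosome ends have near-identical copies elsewhere, so reads of these genes may be split between copies. Gene counts do not show whether the DNA of the 9 genes was intact in every culture, so less RNA from these genes and loss of the genes cannot be told apart.

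**Figure D5:**
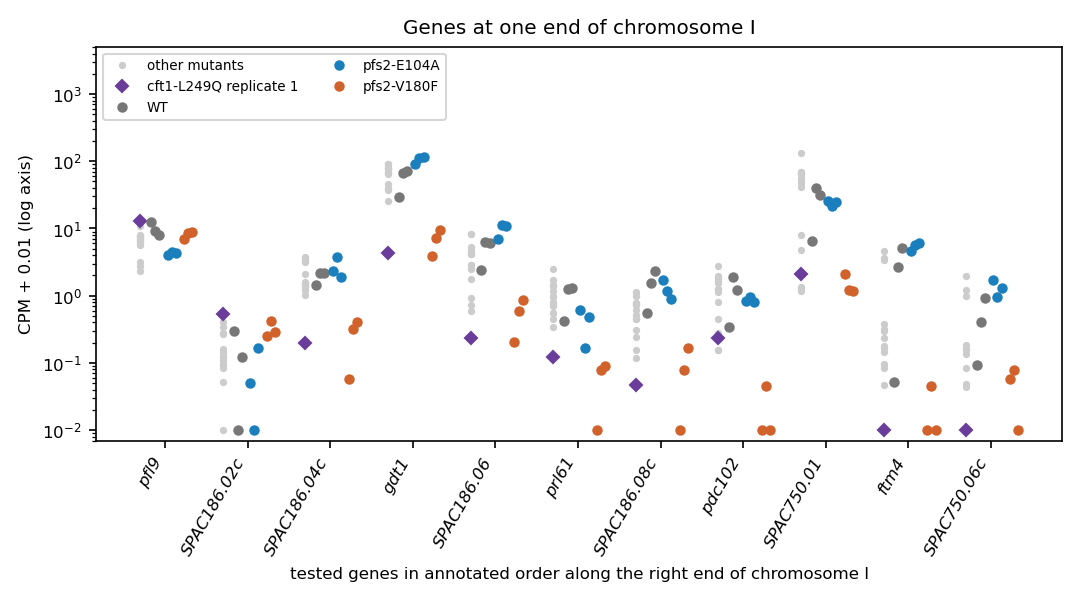
Level in CPM + 0.01 (y axis, log scale) of 11 tested genes in annotated order along 1 end of chromosome I (x axis), with a point for each of the 24 libraries. From SPAC186.04c onwards the 3 pfs2-V180F libraries (orange) lie below all pfs2-E104A (blue) and WT (dark grey) libraries, narrowly below WT replicate 1 for ftm4 and SPAC750.06c. The library cft1-L249Q replicate 1 (purple) is low with them, and toward the right some libraries of other mutants (light grey) are as low.

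There were 6 such runs of adjacent genes at least 2-fold apart in the same direction, which held 21 genes. SPCC1235.18 (-2.65) adjoins ght5 and fell with it. SPNCRNA.603, ght3, shu1 and str3 are neighbours near the other end of chromosome I and all rose. SPAC977.18 (-4.06) and ftm2 (-1.91), also near a chromosome end, fell. The lncRNA nam3 rose by 1.48 ± 0.10, from 16.4, 19.7 and 16.9 to 49.7, 47.5 and 49.99 CPM, with its neighbour SPBPB2B2.05 (1.23), and SPNCRNA.1695 (1.47) with the amino acid permease gene nrg1 (1.13). Of 109 subtelomeric genes tested, 30 rose (27.5%) and 26 fell (23.9%), with a median of 0.05, against 19.6% and 18.6% of all genes tested. At least 2-fold, 7 of these genes rose and 12 fell, against 109 and 42 of all 6287 genes. Most of those that fell lie in the stretch of 9 adjacent genes described above, and SPAC977.18 and ftm2 are also among them. Those that rose include ght3, shu1, str3, nrg1 and SPBPB2B2.05, which lie in the runs named here.

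Most of the remaining lists moved little or in both directions. Of 136 cytosolic ribosomal protein genes, 2 rose and 2 fell, with a median of -0.05, although 14 fell when only the 6 allele libraries were fitted. Of 51 mitochondrial ribosomal protein genes, 2 rose and 11 fell (7 fell with only the 6 allele libraries). Ribosome biogenesis factors numbered 30, of which 3 rose and 6 fell. These counts rested on single libraries, with 1 and 12 without pfs2-E104A replicate 2 and 8 and 3 without pfs2-E104A replicate 3. Of 10 histone genes, 7 rose and 3 did not pass, by at most 0.26 (htb1, for histone H2B). Of 10 flocculin-type genes tested, 2 rose and 3 fell, and cbf12, for a transcription factor of cell adhesion, fell by 0.92 ± 0.11. Thiamine-regulated genes had 2 higher and 2 lower of 9, copper and zinc genes 1 and 3 of 9, and uracil-regulated genes 3 and 1 of 6. Of 5 Tf2 retrotransposon genes tested, 1 was higher and the others did not pass. Among the uracil-regulated genes, with a median of 0.41, urg2 rose by 0.79 ± 0.30 (adjusted p = 0.0405) and urg3 by 0.60 ± 0.12. The gene urg1 was at 132, 276 and 94.9 CPM in pfs2-E104A and 206, 249.6 and 455 in pfs2-V180F, with overlap, and did not pass (adjusted p = 0.0539).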

How the data were processed

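The deposited values are the authors' raw counts of reads per gene in 24 polyA+ RNA-seq libraries, 3 labelled biological replicates in each of 8 groups. HISAT2 2.1.0, SAMtools, HTSeq 0.10.0, DESeq2 and genome build ASM294v2 are named per the submitters' processing notes. A directional kit and paired-end sequencing were used, per the labels' protocols. The annotation release and whether strand was used in counting are not given in the sources used here, and counts of overlapping and antisense genes are uncertain for that reason. The authors' own tables comparing mutants with WT were not used.

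The tests used edgeR 4.0.16 in R 4.3.3. After filterByExpr 6287 genes remained. Libraries were scaled with TMM, and edgeR's quasi-likelihood model took all 24 of them, each group with its own mean, leaving 16 residual degrees of freedom. The common biological coefficient of variation was 4.9%. The contrasts were pfs2-V180F against pfs2-E104A and each allele against WT, which share the WT libraries. Benjamini-Hochberg adjustment ran over the 6287 genes. Calls were made at an adjusted p under 0.05, and a second count took genes also at least 2-fold apart. Values in CPM use the TMM-scaled library sizes. CPM is not corrected for gene length, so it was compared between groups for 1 gene and not used to rank genes by amount of RNA. A gene with 3 or fewer reads over an allele is given as a ratio of reads with its 95% interval. No replicate pair agreed within sampling noise (chi-square per degree of freedom 5.53 to 12.4), so each library was counted.

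Members and gene lists were chosen with earlier results of these data known, and list counts are descriptions beside the counts over all genes. The text names the 10 protein-coding genes with a symbol and the 4 other genes with the largest difference in each direction, among genes at least 2-fold apart whose libraries do not overlap, and up to 4 called members of a list. Other genes are members of the lists or were chosen after their values were seen, which also holds for mentions such as SPNCRNA.603 and the runs of neighbours. Some list members that the rule gave were left out for length. Gene names and neighbours came from the RefSeq annotation of another assembly, which matched 6836 of 6988 identifiers, so no coordinates or sequences are given. The scripts were tested on simulated counts. Alternatives were other scalings and filters, DESeq2 1.42.0, the 6 allele libraries alone, a replicate block and leaving out each library of the alleles and WT.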

Additional observations from a re-analysis of the deposited data

How the results depend on the processing

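The 2404 genes called between the alleles became 2387 with DESeq2 size factors, 2382 with no filter on low counts, 2386 with a minimum of 1 CPM in 3 libraries, 2378 with the DESeq2 test and 1948 with only the 6 allele libraries. Without 1 allele library they ran from 2010 to 2170 and without 1 WT library from 2352 to 2401. Genes at least 2-fold higher ran from 93 to 122 and lower from 37 to 49 over all settings. The same replicate numbers in both alleles do not pair the libraries: the correlations of same-numbered deviations were 0.102, 0.0529 and -0.189. With replicate as a block in all libraries 2451 genes were called, and with a replicate block in only the 6 allele libraries 1606, of which 848 were higher and 758 lower, with 96 and 39 at least 2-fold apart. Not every library correlated best with its own number. Of genes at least 2-fold higher, those with WT outside on the side of pfs2-V180F were 5, and ran from 2 to 7 without 1 library, being 3 without pfs2-V180F replicate 2 and 2 without pfs2-V180F replicate 3 or WT replicate 1. Of those lower, they were 4, and 8 without WT replicate 2. The cause was not tested. Over all alternatives, 2717 values of named genes were recomputed for the allele contrast. Of these, 2580 kept their direction and their side of the threshold, 118 no longer passed, 19 newly passed and 0 changed direction. With 3 libraries per group, shares of counts could not reach an exact p under 0.1, and genes under 1 CPM rest on few reads.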
